A study of Mus musculus with 42 samples.

Results

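The macrophage genes Cd68, Csf1r, Cd14, Mrc1, Cd163, Msr1, Trem2, Lgals3, Tyrobp and Clec7a were chosen by symbol, as 10 of the 21186 genes that the mouse array names. They were read by 15 probes, of which Csf1r and Msr1 had 3 each and Trem2 had 2. The RNA came from the aorta and the skeletal muscle of mice in 7 groups, with 3 one-color arrays for each group and tissue and 42 arrays in all. All mice were male and are described in the methods as 18 to 20 weeks old, with no age given at tissue collection. Treatment by gavage lasted 8 weeks.

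The healthy group (G) was C57BL/6 mice given saline. The diabetic group (A) was KK/Ay mice, a strain that becomes obese and diabetic because of the Ay allele and its background, also given saline. The macroangiopathy group (C) was KK/Ay mice on a high-fat diet whose drinking water held 0.2 mg/ml of L-NAME. L-NAME blocks the enzymes that make nitric oxide. Diet and L-NAME were given for 8 weeks to establish the model, before the 8 weeks of gavage. The mice of group C were given saline by gavage. The remaining 4 groups were KK/Ay mice on the same diet and L-NAME that received SHENQI compound (B), yangyinyiqi (D), huoxue (E) or rosiglitazone (F), a PPARγ agonist, by gavage. Healthy and diabetic mice therefore differed in strain as well as in disease, and the effects of strain and of diabetes cannot be told apart. Both tissues were taken from 3 mice of each group. The labels do not tie an array to a mouse, so equal replicate numbers do not link the aorta and the muscle of a mouse.

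Macrophages take up debris, lipoproteins and microbes, and every tissue holds a resident population that blood monocytes can join. Their survival depends on signals through the receptor encoded by Csf1r, and many of their surface receptors act through the adaptor encoded by Tyrobp. In the wall of a diseased artery they take up lipid and become foam cells, and in skeletal muscle they lie between the fibers and clear damaged tissue. In RNA from whole tissue, fewer macrophages and less RNA per macrophage cannot be told apart.

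The members share a lineage that the transcription factor PU.1 helps to set, and the core of its recognition sequence is GAGGAA. RefSeq promoter windows of 250 bases before to 50 bases after a gene's start (build GRCm38.p6) were found for 6 of the 10 members. The motif GAGGAA or its reverse complement TTCCTC lay in the windows of 4 of these 6, namely Trem2, Cd68, Mrc1 and Clec7a, and in those of 31.3% of all 27025 genes with a window. The longer GAGGAAGT lay in none of the 6 and in 3.69% of all genes, and every match of it is also a match of the shorter motif. The 250 bases before the start of each of the 4 genes are shown because they are the members whose windows held the core, which is in capitals on either strand, and because Trem2 and Clec7a had differences of opposite sign in the comparisons with healthy mice.
Trem2 (chr17:48346151-48346400, plus strand): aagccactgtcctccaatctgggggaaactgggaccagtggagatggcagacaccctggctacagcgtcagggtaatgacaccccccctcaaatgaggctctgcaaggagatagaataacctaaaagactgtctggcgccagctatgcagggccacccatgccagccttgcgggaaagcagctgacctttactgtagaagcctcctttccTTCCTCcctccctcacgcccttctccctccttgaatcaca
Cd68 (chr11:69666171-69666420, minus strand): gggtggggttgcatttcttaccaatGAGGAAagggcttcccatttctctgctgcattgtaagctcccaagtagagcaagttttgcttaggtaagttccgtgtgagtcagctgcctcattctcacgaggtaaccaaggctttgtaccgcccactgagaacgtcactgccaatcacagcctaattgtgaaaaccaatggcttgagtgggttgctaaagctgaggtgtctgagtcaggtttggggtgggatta
Mrc1 (chr2:14229164-14229413, plus strand): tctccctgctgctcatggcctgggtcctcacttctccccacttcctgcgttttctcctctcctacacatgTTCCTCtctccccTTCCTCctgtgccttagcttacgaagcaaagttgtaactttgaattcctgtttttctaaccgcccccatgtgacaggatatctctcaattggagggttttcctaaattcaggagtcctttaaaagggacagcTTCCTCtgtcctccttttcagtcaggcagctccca
Clec7a (chr6:129472780-129473029, minus strand): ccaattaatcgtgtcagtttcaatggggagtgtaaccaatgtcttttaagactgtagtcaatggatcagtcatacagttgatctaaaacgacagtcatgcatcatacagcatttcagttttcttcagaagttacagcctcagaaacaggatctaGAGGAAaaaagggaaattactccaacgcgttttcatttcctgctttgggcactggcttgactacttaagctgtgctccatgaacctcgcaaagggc
Mrc1 held 3 copies in these bases and the other 3 genes held 1 each. A match is a run of letters and does not show that the factor binds there.

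Levels are log2 of the normalized fluorescence intensity. A difference of 1 is a doubling, and a level can be compared between arrays for one gene but not between genes. Probes well above background numbered 23855 to 30296 on the aorta arrays and 20214 to 26864 on the muscle arrays. The probes of 9 members were well above background on all 42 arrays. Those of Msr1, a scavenger receptor that takes up modified lipoproteins, were so on 24, 25 and 28 of the 42 arrays, most of them from aorta.

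Some arrays stood apart in genes of other cells. The mean level of 8 neutrophil genes was 12.23 on healthy aorta array 1 and 7.01 and 7.17 on the other two healthy aorta arrays. It was 10.24 on huoxue aorta array 1 and between 6.49 and 8.19 on the other 17 KK/Ay aorta arrays. The mean of 6 smooth muscle genes was 9.63 on healthy aorta array 1 and between 12.34 and 14.61 on the other 20 aorta arrays. In muscle the neutrophil mean was 8.08, 5.98 and 10.3 on healthy arrays 1, 2 and 3 and between 6.08 and 6.67 on the 18 KK/Ay arrays. Lymphocyte genes were also raised on healthy aorta array 1, with a mean of 10.6, and on healthy muscle array 1, with 7.92. On 1 array each of aorta groups C, B, D, E and F their mean was 9.02 to 10.32. It was 8.11 on another healthy aorta array, 8.09 on 1 diabetic aorta array and 7.21 on 1 SHENQI muscle array. The lowest arrays of these 3 groups were at 6.4, 6.94 and 5.88. For many results whose call ended or whose size changed by over 1.5 times without the healthy arrays that stood apart, the value without them is given. A result printed without such a value is not thereby shown to be stable.

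**Figure D1:**
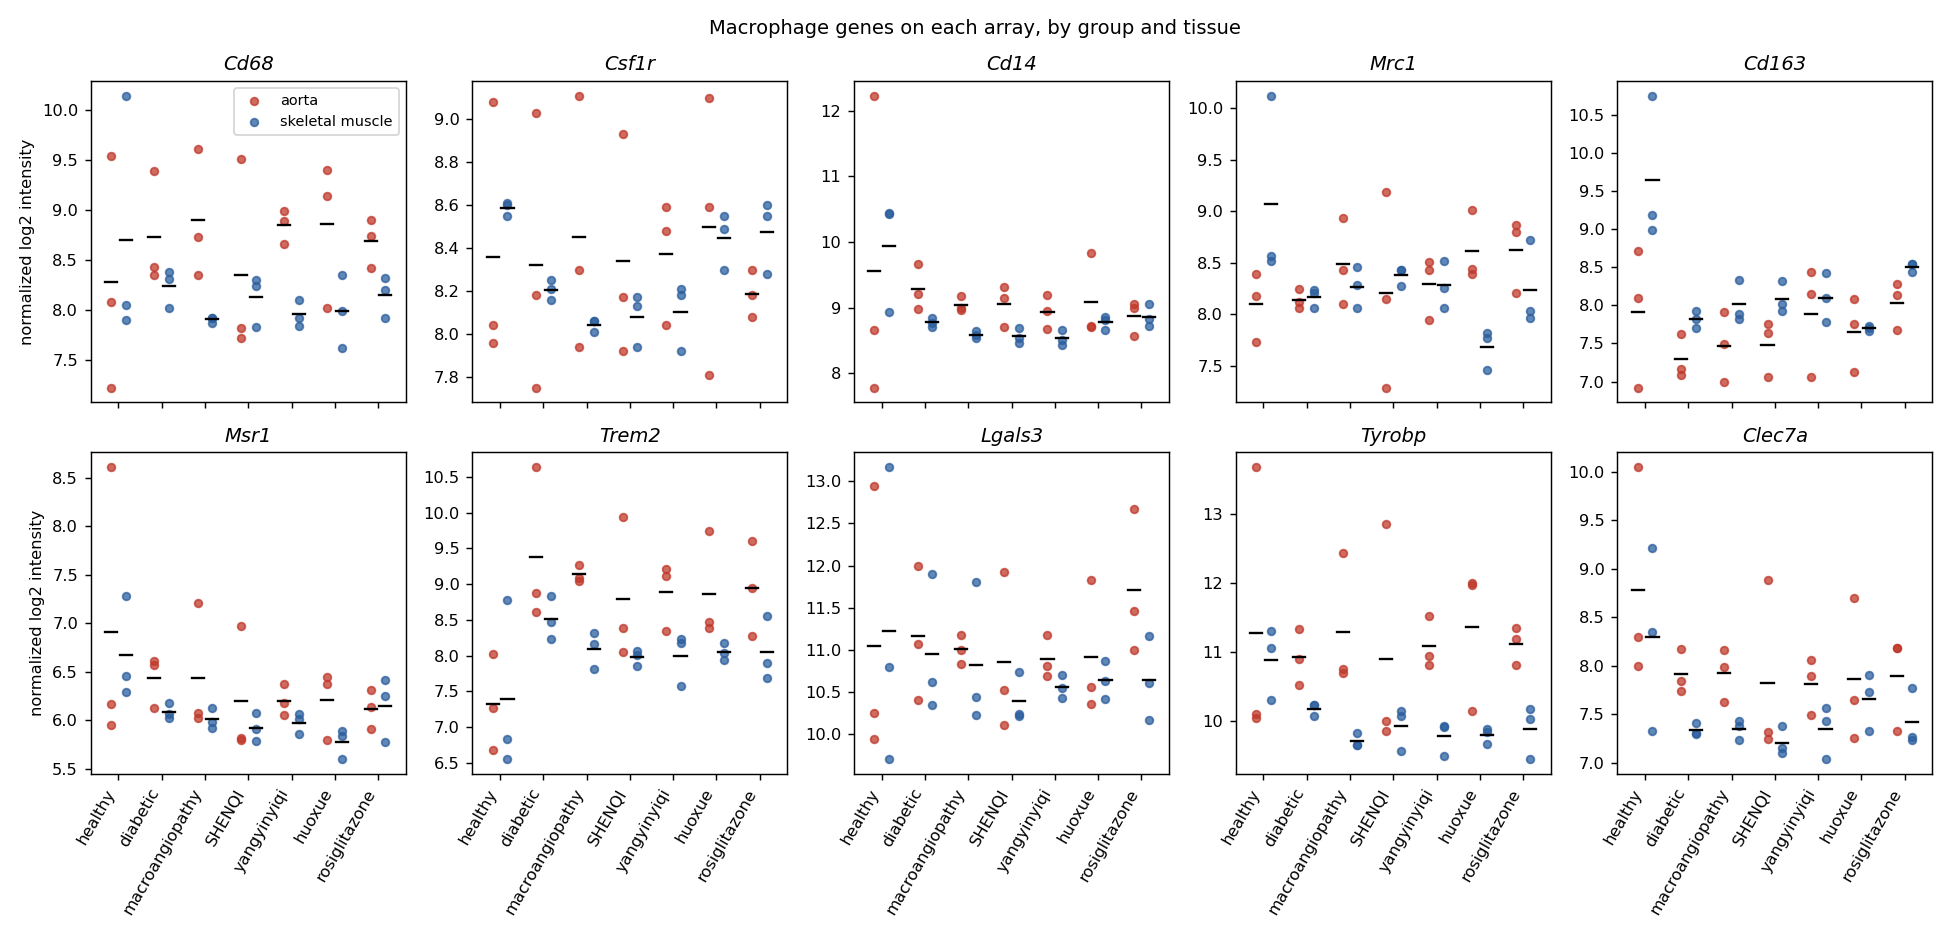
Normalized log2 intensity (vertical axis) of each of the 10 macrophage genes on every array, 1 panel per gene, with the 7 groups along the horizontal axis, aorta in red and skeletal muscle in blue. Each point is 1 array and each short line the mean of 3; Trem2 in aorta was lower on the 3 healthy arrays than on all 18 KK/Ay arrays, and Cd163 in muscle was higher on the 3 healthy arrays than on all 18 KK/Ay arrays.

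The first comparison asked how the diabetic and macroangiopathy mice differed from healthy mice. In skeletal muscle 7 of the 10 members fell in the diabetic mice and 6 in the macroangiopathy mice, where 11.1% and 10.5% of all genes fell. Without Msr1, which passed the filter on low values only through the healthy arrays, 6 and 5 of 9 members fell. Under other settings the number called was as low as 0 in each comparison. The largest fall was in Cd163, the receptor that takes up hemoglobin bound to haptoglobin and marks resident macrophages. Trem2, a lipid-sensing receptor of lipid-laden macrophages, rose in the diabetic muscle and did not pass in the macroangiopathy muscle. The Trem2 call in the diabetic muscle was lost with most single arrays left out. In aorta no member passed the test, and Trem2 came closest. Both comparisons use the same healthy arrays, so the 2 sets of values are not independent. In muscle no slide held a healthy and a diabetic or macroangiopathy array, and the healthy arrays were scanned on other days. Slide, scan day and group therefore cannot be told apart in any of the muscle comparisons with healthy mice. In aorta no slide held a healthy and a macroangiopathy array, so slide and group cannot be told apart in that comparison either.

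Trem2 signals through Tyrobp and is needed for macrophages to handle lipid. In aorta its level was 8.02, 7.26 and 6.68 in the healthy group. It was 8.61, 10.64 and 8.88 in the diabetic group and 9.09, 9.27 and 9.05 in the macroangiopathy group. Every diseased array lay above every healthy array, as did those of 10.8% and 16.8% of all genes in the diabetic and macroangiopathy aorta, and over all 18 KK/Ay aorta arrays the level ran from 8.05 to 10.64 with a median of 9. Trem2 was 4.16-fold higher in the diabetic group, a log2 difference of 2.06 with a standard error (SE) of 0.57, and the adjusted p in limma was 0.0523. It was 3.51-fold higher in the macroangiopathy group, a log2 difference of 1.81 with an SE of 0.57 and an adjusted p of 0.064. Trem2 was the 1 member of 10 below an unadjusted p of 0.05 in either aorta comparison, and no member passed after adjustment. Of all genes tested 4.27% passed the adjusted threshold in the diabetic aorta and 6.66% in the macroangiopathy aorta, and 19.9% and 24.6% had an unadjusted p below 0.05.

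The Trem2 difference in aorta was as large without healthy array 1. Without it the log2 difference was 2.41 in the diabetic group (adjusted p 0.0499) and 2.16 in the macroangiopathy group (adjusted p 0.0693). Slide 1 held healthy arrays 1 and 3 and diabetic array 1, and within that slide the difference was 1.26. Both Trem2 probes were higher, by 2.46 and 1.65 in the diabetic aorta and by 2.23 and 1.40 in the macroangiopathy aorta.

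In skeletal muscle Trem2 was 6.83, 6.55 and 8.78 in the healthy group. It was 8.23, 8.83 and 8.47 in the diabetic group and 7.81, 8.16 and 8.32 in the macroangiopathy group. Healthy array 3, the array with the highest neutrophil mean, lay at the level of the diabetic arrays, and the other two lay below every diabetic and macroangiopathy array. Trem2 rose 2.18-fold in the diabetic muscle, with a log2 difference of 1.12, an SE of 0.40 and an adjusted p of 0.0448. In the macroangiopathy muscle the difference was 0.71 and the adjusted p 0.205. Without healthy array 3 the differences were 1.82 (adjusted p 5.34e-05) and 1.41 (adjusted p 0.000513), and without array 1 they were 0.85 (adjusted p 0.167) and 0.44 (adjusted p 0.509). The call in the diabetic muscle was also lost in limma without healthy array 2 (adjusted p 0.181). It was lost as well without diabetic array 1, 2 or 3 (adjusted p 0.0595, 0.137 and 0.0926).

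With both tissues in one fit Trem2 was 3.01-fold higher in the diabetic group, a log2 difference of 1.59 with an SE of 0.45 and an adjusted p of 0.0714. In the macroangiopathy group the difference was 1.26 with an SE of 0.38 and an adjusted p of 0.0775. No member passed the adjusted threshold in these fits, against 4.49% and 5.14% of all genes tested, and 3 members in each comparison had an unadjusted p below 0.05, against 22% and 24.3% of all genes. These 3 were Trem2, higher, and Cd163 and Clec7a, lower. Without healthy aorta array 1 and healthy muscle array 3, Trem2 rose by 2.11 (adjusted p 0.0101) and 1.79 (adjusted p 0.001), and Cd163 fell by 1.19 (adjusted p 0.00236) and 1.01 (adjusted p 0.0189).

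In skeletal muscle 27% of all genes tested passed the adjusted threshold in the diabetic group and 25.4% in the macroangiopathy group, 11.1% and 10.5% of all genes in the lower direction and 15.8% in the higher direction in the diabetic muscle. Against these shares 7 of 10 members fell in the diabetic muscle and 6 of 10 in the macroangiopathy muscle, and the median log2 difference of the members was -0.65 and -0.80 beside 0.03 and 0.04 over all genes. Msr1 passed the filter on low values only through the healthy arrays, and without it 6 and 5 of 9 members fell. On 6 of 10 members in each comparison, Msr1 among them, the diseased arrays were all below the healthy ones, as on 13.3% and 12.9% of all genes. The counts moved with the healthy arrays. Without healthy array 3, 4 members fell and 1 rose in the diabetic muscle, and 5 fell and 1 rose in the macroangiopathy muscle. In that setting 31.2% and 30.6% of all genes passed in either direction. Without arrays 1 and 3, which leaves a single healthy array whose spread is taken from the other groups, 2 fell and 1 rose, and 3 fell and 1 rose, where 19.4% and 17.9% of all genes passed. Without diabetic array 1, 2 or 3 the number called in the diabetic muscle was 3, 4 and 3, and it was 2 in each comparison with slides 1, 3 and 11 as a batch term and 0 in a fit of the 6 arrays compared alone.

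Cd163 had the lowest adjusted p of the members in the diabetic muscle. Its level was 9.19, 8.99 and 10.76 in healthy muscle, 7.93, 7.82 and 7.71 in diabetic muscle and 7.89, 8.34 and 7.82 in macroangiopathy muscle. All 18 KK/Ay muscle arrays, from 7.67 to 8.54, were below every healthy array. Cd163 fell 3.55-fold in the diabetic muscle, with a log2 difference of -1.83, an SE of 0.31 and an adjusted p of 0.000392. It fell 3.09-fold in the macroangiopathy muscle, with a difference of -1.63 and an adjusted p of 0.00108. Without healthy arrays 1 and 3 the differences were -1.18 (adjusted p 0.00173) and -0.98 (adjusted p 0.00629).

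In aorta Cd163 was 6.92, 8.72 and 8.10 in the healthy group, 7.09, 7.63 and 7.16 in the diabetic group and 7.92, 7.49 and 7.00 in the macroangiopathy group. Healthy array 1, with the high neutrophil and lymphocyte genes, had the lowest Cd163 of all aorta arrays. The log2 differences of -0.62 and -0.44 had adjusted p-values of 0.45 and 0.559, and without that array they were -1.11 (adjusted p 0.183) and -0.94 (adjusted p 0.206).

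Mrc1 and Msr1 are also uptake receptors. Mrc1, the mannose receptor, was 8.57, 8.52 and 10.12 in healthy muscle, 8.24, 8.06 and 8.21 in diabetic muscle and 8.28, 8.46 and 8.06 in macroangiopathy muscle. All 6 diseased arrays were below the healthy ones, of which array 3 stood far above the others. Mrc1 fell by 0.90 on the log2 scale in the diabetic muscle (adjusted p 0.0378), and the difference of -0.80 in the macroangiopathy muscle had an adjusted p of 0.063. Without healthy array 3 these were -0.37 (adjusted p 0.156) and -0.28 (adjusted p 0.301). The Mrc1 difference in the diabetic muscle also did not pass in limma without diabetic array 1, 2 or 3 (adjusted p 0.073, 0.0963 and 0.0789).

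Msr1 was 6.46, 6.29 and 7.28 in healthy muscle and 6.02, 6.18 and 6.06 in diabetic muscle. The differences of -0.59 in the diabetic muscle (adjusted p 0.0352) and -0.67 in the macroangiopathy muscle (adjusted p 0.0196) passed the threshold. Only 2 of the 3 arrays of either diseased group had a probe well above background, so Msr1 entered the test through the healthy arrays alone, where it was high, and the size of these differences rests on values close to background. Without healthy array 3 the differences were -0.29 (adjusted p 0.157) and -0.37 (adjusted p 0.0757). The diabetic difference also did not pass in limma without diabetic array 1, 2 or 3 (adjusted p 0.0954, 0.0538 and 0.0884). The macroangiopathy difference did not pass without macroangiopathy array 1 or 3 (adjusted p 0.0615 and 0.0669).

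Cd14 and Clec7a recognize microbes, Cd14 as the co-receptor for bacterial lipopolysaccharide and Clec7a (dectin-1) as the receptor for fungal beta-glucan. Cd14 was 10.43, 8.93 and 10.44 in healthy muscle, 8.77, 8.71 and 8.84 in diabetic muscle and 8.58, 8.64 and 8.54 in macroangiopathy muscle. Healthy arrays 1 and 3 were the 2 with raised neutrophil genes, and healthy array 2 lay just above the highest diabetic array. Cd14 fell 2.23-fold in the diabetic muscle (log2 difference -1.16, SE 0.26, adjusted p 0.00342) and 2.54-fold in the macroangiopathy muscle (difference -1.35, adjusted p 0.00125). Without arrays 1 and 3 the difference in the diabetic muscle was -0.16 with an adjusted p of 0.448 and that in the macroangiopathy muscle -0.34 with an adjusted p of 0.0847. Cd14 is also expressed by neutrophils, and the part of the neutrophil genes in this result was not tested.

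In aorta Cd14 was 12.23 on healthy array 1 and 8.66 and 7.78 on the other two. The log2 difference in the diabetic aorta was -0.27 with all arrays and 1.07 without array 1 (adjusted p 0.117), so that array set its sign.

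Clec7a was 9.22, 8.35 and 7.33 in healthy muscle, 7.41, 7.31 and 7.30 in diabetic muscle and 7.43, 7.38 and 7.24 in macroangiopathy muscle. Healthy arrays 1 and 2 were above all 18 KK/Ay muscle arrays, and healthy array 3 lay among them. Clec7a fell by 0.96 in the diabetic muscle (adjusted p 0.028) and by 0.95 in the macroangiopathy muscle (adjusted p 0.0309), and without array 3 by 1.45 (adjusted p 0.000221) and 1.44 (adjusted p 0.000253). Without array 1 the differences were -0.50 (adjusted p 0.15) and -0.49 (adjusted p 0.166). Nor did they pass in limma without healthy array 2 (adjusted p 0.0504 and 0.0542). The diabetic difference did not pass without diabetic array 1, 2 or 3 (adjusted p 0.0577, 0.0666 and 0.0742). The macroangiopathy difference did not pass without macroangiopathy array 1, 2 or 3 (adjusted p 0.0664, 0.0633 and 0.0884).

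Tyrobp (DAP12) is the adaptor through which Trem2 signals, and neutrophils and natural killer cells also use it. Its only probe on the array, which the array's annotation places in build mm9, is shown because every Tyrobp value here comes from these 60 bases, and the mapped span is longer than the probe because it crosses an intron.
Tyrobp probe (chr7:31200651-31202378, plus strand): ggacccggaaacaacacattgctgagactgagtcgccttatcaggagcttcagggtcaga
Tyrobp was 11.06, 10.31 and 11.30 in healthy muscle, 10.07, 10.23 and 10.23 in diabetic muscle and 9.65, 9.65 and 9.83 in macroangiopathy muscle. All 18 KK/Ay muscle arrays, from 9.45 to 10.23, were below every healthy array. Tyrobp fell by 0.72 in the diabetic muscle (SE 0.22, adjusted p 0.0246) and 2.27-fold, by 1.19 on the log2 scale, in the macroangiopathy muscle (adjusted p 0.00106). Without healthy arrays 1 and 3 the differences were -0.14 (adjusted p 0.744) and -0.61 (adjusted p 0.108), neither past the threshold. With all arrays the Trem2 and Tyrobp differences in the diabetic muscle had opposite signs, but neither call held with every single array left out. Tyrobp did not pass in limma without healthy array 1 or 3 (adjusted p 0.0794 and 0.0987). Nor did it pass without diabetic array 1 or 3 (adjusted p 0.079 and 0.0536). In aorta Tyrobp was 13.68, 10.11 and 10.05 in the healthy group, and the differences of -0.36 and 0.02 had adjusted p-values of 0.862 and 0.992. Without array 1 they were 0.84 (adjusted p 0.705) and 1.22 (adjusted p 0.412), so that array set their sign or size.

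Csf1r, the receptor for the macrophage growth factor, had the smallest spread of the members in muscle, with an SD of 0.231 over 21 arrays. It was 8.55, 8.60 and 8.61 in healthy muscle, 8.21, 8.16 and 8.25 in diabetic muscle and 8.06, 8.01 and 8.06 in macroangiopathy muscle. The 3 groups did not overlap. Csf1r fell by 0.38 in the diabetic muscle (adjusted p 0.0112) and by 0.55 in the macroangiopathy muscle (adjusted p 0.00103). Without healthy arrays 1 and 3 the differences were -0.40 (adjusted p 0.0672) and -0.56 (adjusted p 0.0142). With slides 1, 3 and 11 as a batch term they were -0.17 (adjusted p 0.8) and -0.34 (adjusted p 0.599). Its 3 probes differed in size, by -0.73, -0.36 and -0.05 in the diabetic muscle and -0.92, -0.34 and -0.38 in the macroangiopathy muscle. The level also went with the slide: it was 8.28 to 8.61 on slides 3 and 11 and on healthy muscle array 3, and 7.92 to 8.25 on the other muscle arrays, and no slide held a healthy and a diabetic or macroangiopathy muscle array.

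Cd68, a lysosomal glycoprotein of phagocytes, and Lgals3 (galectin-3), a lectin that many activated cells also make, did not pass the test against healthy mice. Cd68 was 8.05, 7.90 and 10.14 in healthy muscle and Lgals3 10.79, 9.70 and 13.17, so array 3 was the highest for both. The differences in the diabetic muscle were -0.46 for Cd68 (adjusted p 0.405) and -0.27 for Lgals3 (adjusted p 0.789). Without array 3 they were 0.26 and 0.71, neither past the threshold.

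**Figure D2:**
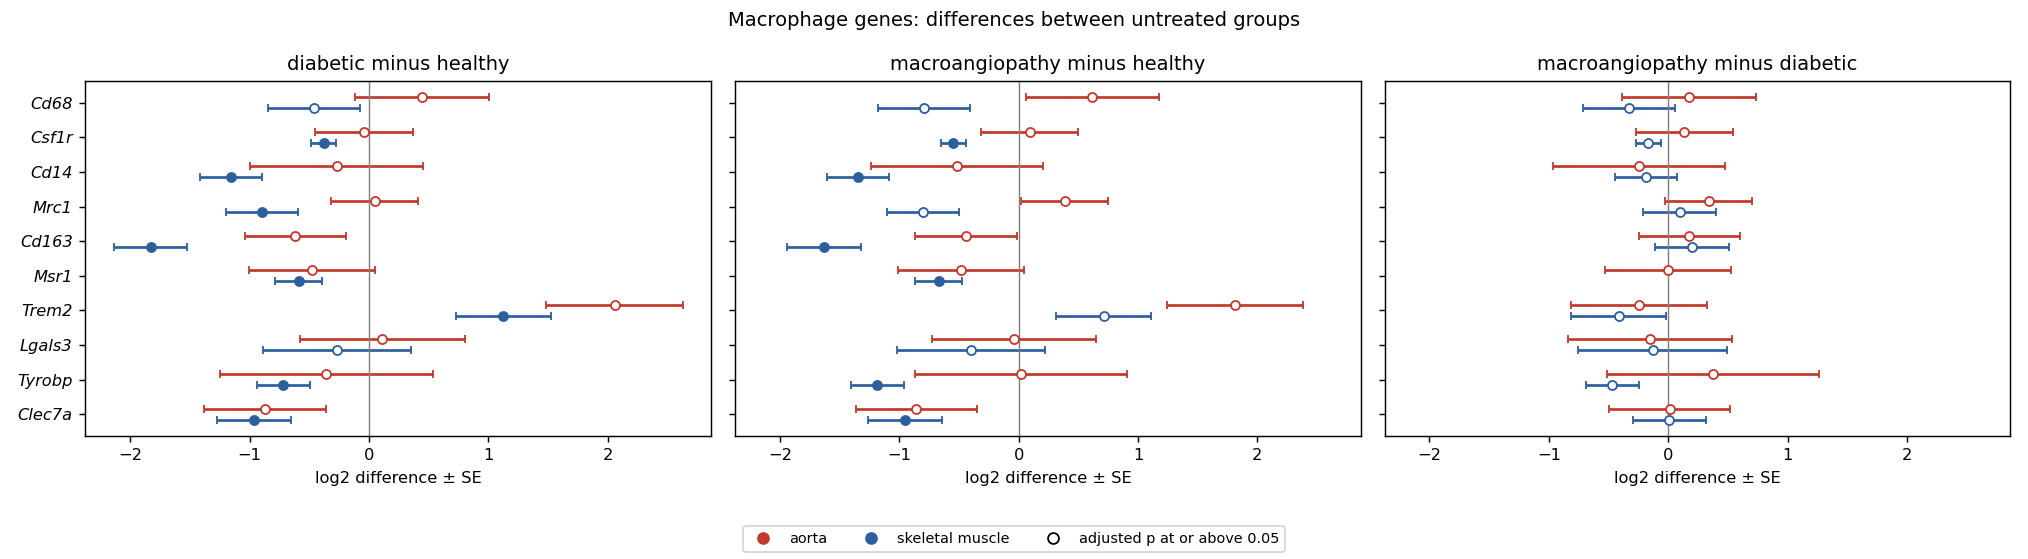
Log2 difference (horizontal axis) of each member between the untreated groups, 1 panel each for diabetic minus healthy, macroangiopathy minus healthy and macroangiopathy minus diabetic, with aorta in red, skeletal muscle in blue and bars of 1 SE; filled points have an adjusted p below 0.05. Against healthy mice the muscle points lie below 0 except for Trem2, in aorta Trem2 at 2.06 and 1.81 lies farthest from 0, and against diabetic mice no point is filled.

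All 10 members had a more negative difference in muscle than in aorta, with medians of the tissue difference of -0.63 in the diabetic group and -0.97 in the macroangiopathy group. The test of that difference called no member, against 0.0742% and 0.0952% of all genes, and no member had an unadjusted p below 0.05, against 7.07% and 12.3% of all genes. The lowest was for Mrc1 in the macroangiopathy group, with a difference of -1.19 between tissues and an unadjusted p of 0.058 in limma (adjusted p 0.427). An unequal response of the 2 tissues was therefore not detected at this sample size.

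Of 20 other macrophage genes, 19 were tested in the diabetic muscle and 14 fell, none rose, and the median difference was -0.93. In the macroangiopathy muscle 16 of 18 fell and the median was -1.04. The complement genes C1qa, C1qb and C1qc, which macrophages make in most tissues, led in the diabetic muscle, with differences of -1.13 (adjusted p 0.000293), -1.60 (adjusted p 0.000236) and -1.39 (adjusted p 0.000317). In the macroangiopathy muscle C1qb fell by 1.78 (adjusted p 9.78e-05) and Laptm5, a lysosomal protein of blood cells, by 1.57 (adjusted p 0.000134). Without healthy array 3, 11 and 13 of these genes fell, and without arrays 1 and 3, 5 and 8. C1qb then differed by -1.01 and -1.19, and C1qc by -0.82 in the diabetic muscle. In aorta none of the 20 passed the test, and 2 and 3 had an unadjusted p below 0.05, while the median changed sign with healthy array 1, from -0.65 and -0.49 with it to 0.26 and 0.37 without it.

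Among 12 genes of resident macrophages, 5 fell in the diabetic muscle and 3 in the macroangiopathy muscle, or 4 and 3 of the 10 that did not pass the filter through the healthy arrays alone. The differences were -3.18 and -3.16 for Marco, a scavenger receptor, -1.25 and -0.97 for F13a1, a coagulation factor subunit, and -0.83 and -0.74 for Lyve1, a hyaluronan receptor also found on lymphatic vessels (adjusted p-values 0.00905 to 0.0455). None of Marco, F13a1 and Lyve1 passed without healthy arrays 1 and 3 (adjusted p-values 0.3 to 0.776). Without healthy array 3, 2 of all 12 genes rose and 3 fell in the diabetic muscle, and 1 rose and 4 fell in the macroangiopathy muscle. In aorta 2 of the 12 rose in the diabetic group and 3 in the macroangiopathy group, where 1.93% and 3.44% of all genes rose, and none fell. Gas6, a ligand of receptors that clear dying cells and a product of smooth muscle as well, rose by 2.26 in the diabetic aorta (adjusted p 0.00573) and 2.59 in the macroangiopathy aorta (adjusted p 0.00228). Cd209f, a C-type lectin, rose by 1.99 (adjusted p 0.0101) and 2.08 (adjusted p 0.00778), and Cbr2, a carbonyl reductase, rose by 2.62 in the macroangiopathy aorta (adjusted p 0.0199). Without healthy aorta array 1 Gas6 and Cd209f rose in each comparison, and Cbr2, at 1.93 in the macroangiopathy aorta, did not pass (adjusted p 0.0813). All 6 smooth muscle genes were higher in both diseased aorta groups at an unadjusted p below 0.05, with median differences of 1.94 and 2.61, or 0.93 and 1.5 without healthy aorta array 1, and the part of tissue composition in the aorta values was not tested.

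Of 10 other genes of lipid-associated macrophages tested in muscle, none rose in either group. Spp1 (osteopontin) fell by 1.56 in the diabetic muscle (adjusted p 0.00917), and Spp1 and Apoe fell in the macroangiopathy muscle with differences of -1.35 (adjusted p 0.0218) and -0.99 (adjusted p 0.0386). No gene of this list passed in the macroangiopathy muscle without healthy array 1, array 3 or both, or in the diabetic muscle without both, where Spp1 differed by -0.06 (adjusted p 0.896). In aorta none passed with all arrays. Without healthy array 1 the lipid droplet protein gene Plin2 fell there, with differences of -1.69 (adjusted p 0.0461) and -1.85 (adjusted p 0.0268). Gpnmb, a lysosomal glycoprotein of lipid-laden macrophages, was 0.97 higher in the diabetic aorta, with an unadjusted p of 0.00407 in limma and an adjusted p of 0.0728.

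Of 5 inflammatory genes tested in muscle, 3 passed the filter through the healthy arrays alone. Of the other 2 genes 1 fell in each diseased group, Tlr2, a receptor for bacterial lipoproteins, with differences of -0.56 (adjusted p 0.0223) and -0.70 (adjusted p 0.00671). Without healthy arrays 1 and 3 these were 0.01 (adjusted p 0.971) and -0.13 (adjusted p 0.54). Of 7 alternative activation genes that did not depend on the healthy arrays for the filter, 1 fell in the diabetic muscle and 2 in the macroangiopathy muscle. Il4ra, a subunit of the interleukin-4 receptor, fell in both, with differences of -1.04 (adjusted p 0.00643) and -1.11 (adjusted p 0.00451), and without healthy arrays 1 and 3 these were -0.37 (adjusted p 0.253) and -0.44 (adjusted p 0.174). Mgl2, a galactose-binding lectin, fell in the macroangiopathy muscle by 0.60 (adjusted p 0.0471), and it was -0.38 without healthy array 1 (adjusted p 0.213) and -0.98 without arrays 1 and 3 (adjusted p 4.82e-05). No gene of either list rose in muscle, and none passed in aorta.

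Markers of other blood cells were tested in the same muscle arrays. Of 8 pan-leukocyte genes 1 passed the filter in the diabetic muscle through the healthy arrays alone. Of the other 7 genes 3 fell and 1 rose there. In the macroangiopathy muscle 7 of the 8 fell and 1 rose. The gene that rose was Lsp1 in both, by 0.88 and 0.89. Without healthy arrays 1 and 3 none of the 8 fell and 1 rose, Lsp1, by 0.67 (adjusted p 0.0023) and 0.68 (adjusted p 0.00235). Of 3 neutrophil genes that did not depend on the healthy arrays for the filter, 1 fell in the diabetic muscle, Retnlg, with a difference of -1.38 (adjusted p 0.0452), and none in the macroangiopathy muscle. The Retnlg difference was -0.15 without healthy arrays 1 and 3 (adjusted p 0.718).

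**Figure D3:**
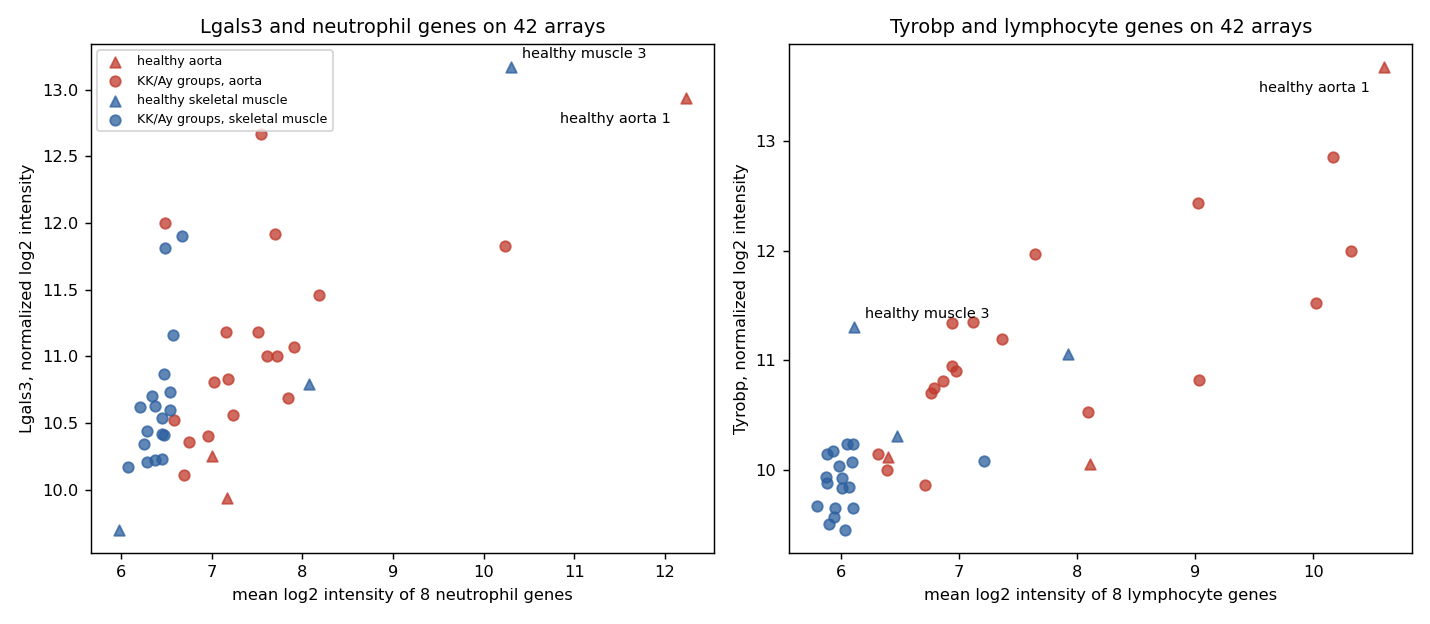
Left, the log2 level of Lgals3 (vertical axis) against the mean log2 level of the 8 neutrophil genes (horizontal axis); right, that of Tyrobp against the mean of the 8 lymphocyte genes. Each point is 1 of the 42 arrays, triangles are healthy arrays and circles KK/Ay arrays, and healthy aorta array 1 at a neutrophil mean of 12.23 and healthy muscle array 3 at 10.3 are labelled.

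The second comparison asked what the high-fat diet and L-NAME added in KK/Ay mice. No member passed the adjusted threshold in the macroangiopathy against the diabetic group, in aorta, muscle or both, and none had an unadjusted p below 0.05, where 0% of all genes passed after adjustment. The share with an unadjusted p below 0.05 was 5.18% in both tissues, 1.75% in aorta and 3.65% in muscle. The difference between the tissues also called no member (0% of all genes). No slide held a diabetic and a macroangiopathy array, so slide and group cannot be told apart in this comparison. In both tissues together Trem2 differed by -0.33 with a 95% interval of -0.95 to 0.29, Cd163 by 0.19 with an interval of -0.16 to 0.53, and Cd14 by -0.22 with an interval of -0.44 to 0.01. In muscle 4 members, Cd68, Csf1r, Cd14 and Tyrobp, were lower on all 3 macroangiopathy arrays than on every diabetic array, as 6.95% of all genes were. The Tyrobp difference there was -0.47, with an unadjusted p of 0.0509 in limma and an adjusted p of 1.

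The third comparison asked whether the treatments moved these genes in the macroangiopathy model. All 4 treatments were set against the same 6 macroangiopathy arrays. SHENQI compound and yangyinyiqi changed no member at either threshold in aorta, muscle or both, where 0% of all genes passed after adjustment and 2.69% and 3.42% had an unadjusted p below 0.05 in both tissues together. In aorta these shares were 1.33% and 0.372%, and in muscle 1.21% and 1.13%. The difference between the tissues called no member under any of the 4 treatments, against 0% of all genes for SHENQI compound and yangyinyiqi, 2.99% for huoxue and 1.47% for rosiglitazone.

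With SHENQI compound the Trem2 level was 8.38, 9.94 and 8.05 in aorta and 7.85, 8.01 and 8.06 in muscle. Aorta array 2 was the highest of its group for all 10 members, and its lymphocyte mean was 10.17. In both tissues together Trem2 differed by -0.24 with a 95% interval of -0.80 to 0.33, Cd163 by 0.04 (-0.34 to 0.42) and Cd14 by 0.00 (-0.22 to 0.22). The interval for Tyrobp was the widest, from -1.15 to 0.98. With yangyinyiqi the differences ran from -0.19 for Lgals3 (-0.68 to 0.30) to 0.25 for Cd163 (-0.27 to 0.77).

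With huoxue and with rosiglitazone 1 member rose, Csf1r in skeletal muscle. In aorta neither changed a member at either threshold, where 0% of all genes passed after adjustment and 0.769% and 2.87% had an unadjusted p below 0.05, nor did huoxue in both tissues together (0% and 14.3%). Without huoxue aorta array 1, which had the high neutrophil mean, no member passed after adjustment in aorta or in both tissues. In the huoxue muscle 18.5% of all genes tested passed the adjusted threshold, 8.1% of all genes in the higher direction. In the rosiglitazone muscle these shares were 5.74% and 1.95%. The 9 members tested, with 1 gene past the threshold, are too few to set against these shares. Csf1r was 8.49, 8.55 and 8.30 with huoxue and 8.60, 8.28 and 8.55 with rosiglitazone, above the 8.06, 8.01 and 8.06 of the macroangiopathy muscle without overlap. It rose by 0.41 with huoxue (95% interval 0.19 to 0.62, adjusted p 0.0113) and by 0.44 with rosiglitazone (0.22 to 0.65, adjusted p 0.0192). These 6 arrays lay on slides 3 and 11, the slides with high Csf1r, and no macroangiopathy array lay on them. With those slides as a batch term the differences were 0.10 and 0.12, with adjusted p-values of 1, and with the slide as a random block they were 0.39 (adjusted p 0.106) and 0.47 (adjusted p 0.0879). Without huoxue array 2 the huoxue difference did not pass (adjusted p 0.0555), and without rosiglitazone array 1 or 3 or any 1 of the macroangiopathy arrays the rosiglitazone difference did not. The 3 probes differed in size, by 0.64, 0.44 and 0.14 with huoxue and 0.77, 0.35 and 0.19 with rosiglitazone.

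In the huoxue muscle Mrc1 was 7.46, 7.82 and 7.77, below every macroangiopathy array. The difference of -0.58 had an adjusted p of 0.189, and 20.8% of all genes were as fully separated in the lower direction. Cd163 at 7.70, 7.67 and 7.73 was lower by 0.32 (adjusted p 0.501).

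With rosiglitazone Cd163 was 7.68, 8.28 and 8.14 in aorta and 8.54, 8.44 and 8.54 in muscle. The 3 muscle arrays were above every macroangiopathy array, as were those of Csf1r and Cd14 and of 21% of all genes, and in aorta the groups overlapped. In both tissues together Cd163 was 0.53 higher, with an SE of 0.16, a 95% interval of 0.18 to 0.88 and an unadjusted p of 0.00662 in limma. The adjusted p was 0.226, so Cd163 did not pass, and 0.00631% of all genes did after adjustment while 12% had an unadjusted p below 0.05. The difference was close to equal in the tissues, 0.56 in aorta and 0.49 in muscle. All 6 treated arrays remained below the highest healthy array of their tissue, and in muscle they were below every healthy array.

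Trem2 was not lowered by any treatment at either threshold. The differences in both tissues together were -0.24 for SHENQI compound, -0.18 for yangyinyiqi (95% interval -0.54 to 0.18), -0.16 for huoxue (-0.61 to 0.29) and -0.12 for rosiglitazone (-0.59 to 0.34). In aorta every treated array was above the highest healthy value of 8.02. Of the 20 other macrophage genes none passed the adjusted threshold under any treatment in muscle. With rosiglitazone 4 of 18 were higher there at an unadjusted p below 0.05 in limma, where 11.1% of all genes were. Their median difference was 0.29 beside 0.04 over all genes. With so few genes no excess over that share was tested.

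**Figure D4:**
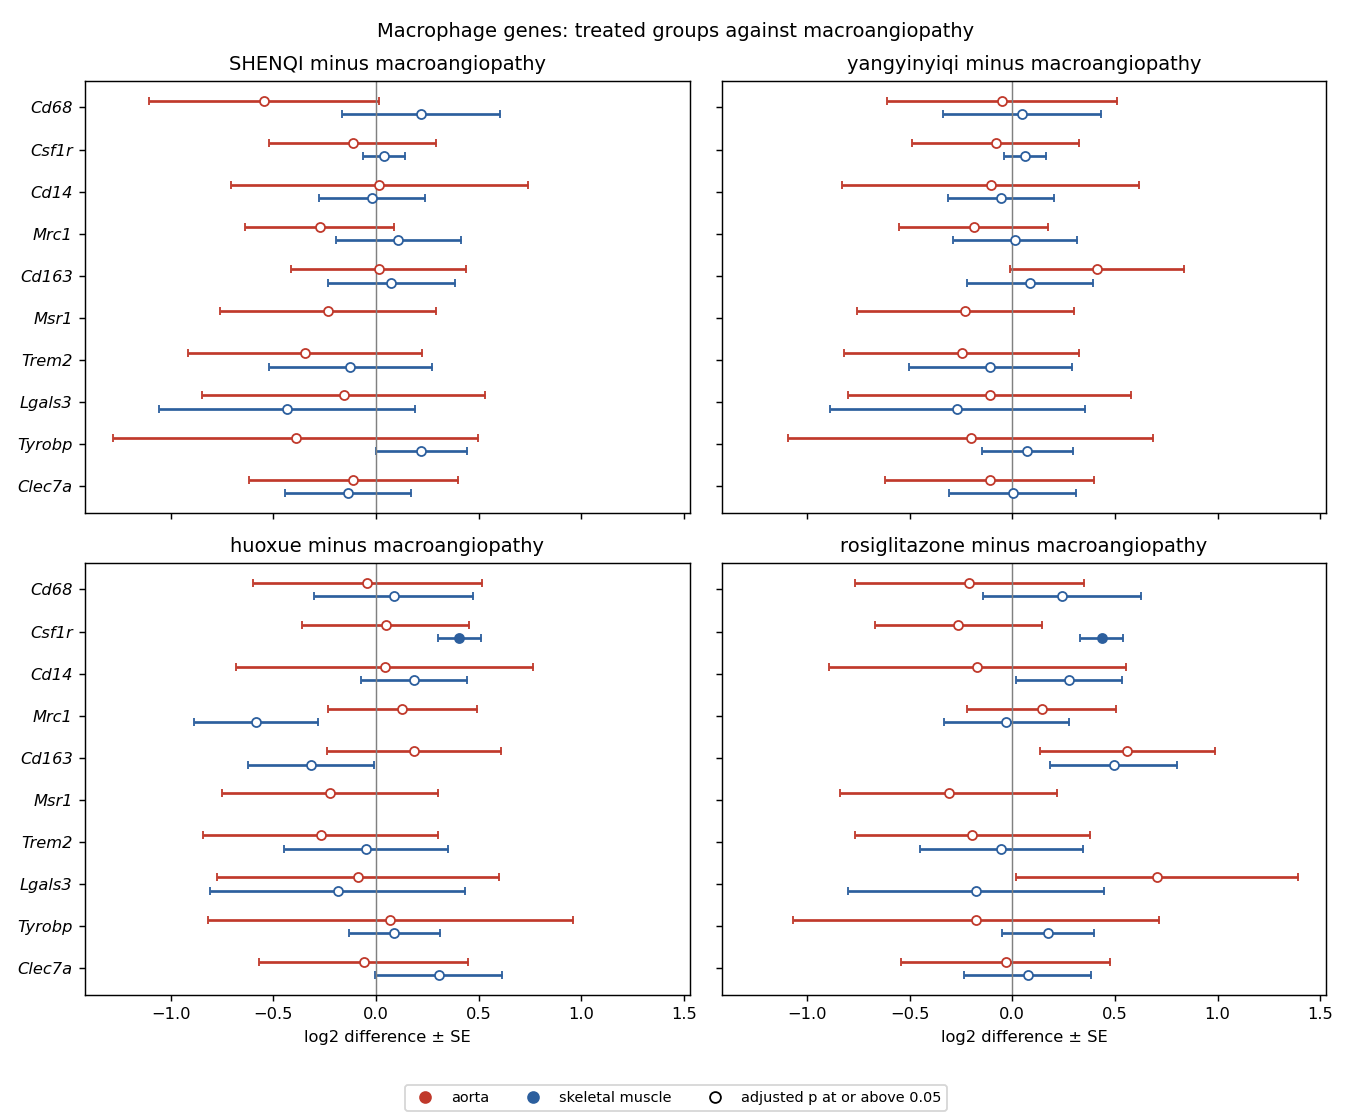
Log2 difference from the macroangiopathy group (horizontal axis) of each member under SHENQI compound, yangyinyiqi, huoxue and rosiglitazone, with aorta in red, skeletal muscle in blue and bars of 1 SE; filled points have an adjusted p below 0.05, and Msr1 was not tested in muscle. The 2 filled points are Csf1r in the huoxue and rosiglitazone muscle, at 0.41 and 0.44.

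The last comparison set aorta against skeletal muscle over all 42 arrays. Tyrobp, Trem2, Cd68 and Clec7a were higher in aorta and Cd163 was lower, where 40.3% of all genes were higher and 36.5% lower, 76.8% in all. The 5 of 10 members called are fewer than that background. Tyrobp ran from 9.86 to 13.68 with a median of 10.9 in aorta and from 9.45 to 11.30 with a median of 9.93 in muscle, and was 2.17-fold higher in aorta (log2 difference 1.12, SE 0.25, adjusted p 0.000212). Trem2 was higher by 0.75 (adjusted p 0.000808), Cd68 by 0.51 (adjusted p 0.0148) and Clec7a by 0.49 (adjusted p 0.00864). Cd163 was 1.51-fold lower in aorta, by -0.59 (adjusted p 0.000506), and its difference was -1.73 in the healthy group and between -0.61 and -0.04 in the KK/Ay groups. Trem2 showed the reverse, with a difference of -0.06 in the healthy group and 0.82 to 1.04 in the KK/Ay groups. The difference of these tissue contrasts between strains was tested only in the 2 tissue interaction tests above, which called neither gene.

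Of the 20 other macrophage genes 14 were higher in aorta and none lower. Pan-leukocyte genes (6 of 8) and lymphocyte genes (7 of 8) were higher there too, as were 8 of 9 adipocyte genes with a median difference of 3.07. The 7 skeletal muscle genes were all lower in aorta and 5 of 6 smooth muscle genes higher, as the tissue labels say.

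The members varied together from array to array. Over the 45 pairs of members and the 21 arrays of a tissue, the Pearson correlation had a median of 0.47 in aorta, from -0.46 to 0.88, and of 0.55 in muscle, from -0.59 to 0.89, and 37 and 38 pairs were positive. With each group's mean subtracted the medians were 0.63 and 0.58. In aorta Cd163 had a correlation of 0.37 with Mrc1 and was at or below 0 with the other members, down to -0.46 with Csf1r, while in muscle it followed Mrc1 (0.85) and Msr1 (0.86). Trem2 and Clec7a had the lowest correlation in muscle, -0.59. These arrays share slides, signal depth and cell makeup, and the healthy arrays that stood apart enter every pair.

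The genes most like the members, by correlation with the mean of the 9 members well above background on all arrays after each tissue's mean was subtracted, were Ms4a7 (0.91), Igsf6 (0.90), Alox5ap (0.87), AF251705 (0.86) and Fcer1g (0.85), over 42 arrays and 16106 genes compared. Ms4a7 is a membrane protein of mature macrophages, and Fcer1g encodes the signaling chain of Fc receptors.

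**Figure D5:**
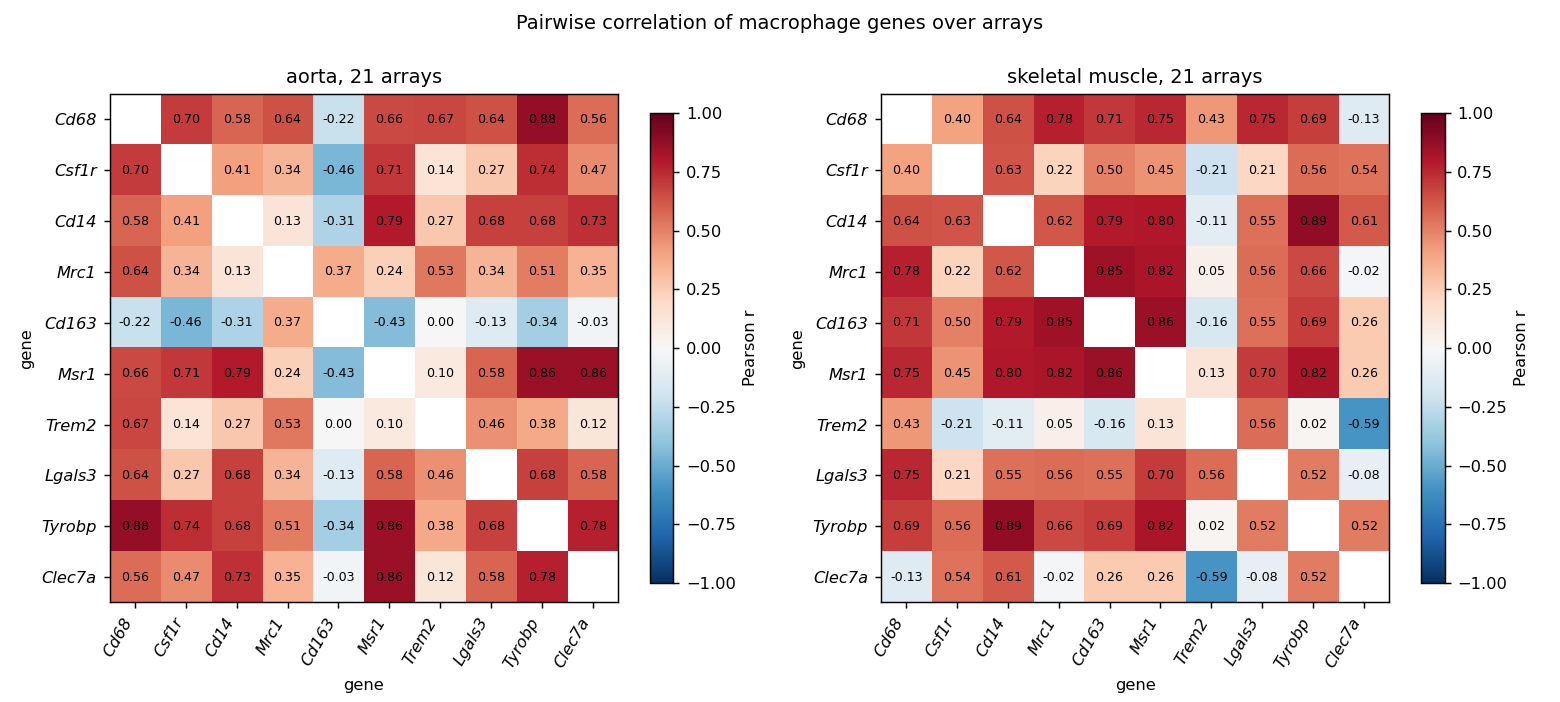
Pearson correlation of each pair of the 10 members over the 21 arrays of aorta (left) and of skeletal muscle (right), printed in each cell and shown as color from -1 to 1. Most cells are positive, with medians of 0.47 and 0.55, and the Cd163 row in aorta and the pair of Trem2 and Clec7a in muscle, at -0.59, hold negative values.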

How the data were processed

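Total RNA of 42 samples was amplified, labeled with Cy3 and hybridized to Agilent mouse arrays of 45018 spots. The deposited files are scanner output of Agilent Feature Extraction 10.7.3.1, and their intensity columns are linear spot brightness that the authors had not yet normalized across arrays. The value table that the authors deposited holds log2 values, with a column median of 5.36, and was used as an alternative. Gene symbols came from the 8 files that carry them and were joined by probe name; they name 34891 of 41174 probes, for 21186 genes.

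Median spot and background intensities were corrected by normexp (offset 0), quantile normalized over all arrays and averaged per probe and then per symbol on the log2 scale (R 4.3.3, limma 3.58.1). Irregular spots were left out. A gene was tested where at least 1 group and tissue of the comparison had a probe above background, by the scanner's own flag, on its 3 arrays. lmFit and eBayes were fitted within a tissue (21 arrays, 7 means), over both tissues with a tissue term (12 arrays), with a tissue interaction, and between tissues (42 arrays, 14 means), and p-values were adjusted over all genes tested by Benjamini-Hochberg at 0.05. The fits were tested on simulated data. The number of arrays limits the precision. Alternatives were other background corrections, normalizations, filters, probe rules, slide terms, a replicate block and leaving out arrays; leaving out the healthy arrays that stood apart was chosen after seeing the data.

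The members and the lists were chosen with earlier results of these data known. All members are named, and at most 3 genes of each other list, those with the smallest unadjusted p in a comparison. Replicate numbers did not pair the samples between groups. Of 42 pairs of same-numbered arrays from different groups of a tissue, 9 had a correlation of deviations over 0.1 (range -0.50 to 0.62). Such arrays came from different mice, so this check cannot show whether the aorta and muscle of a mouse share a number. That was not tested, and the main fits that used both tissues treated all arrays as independent. Tests of the lymphocyte list in muscle are not reported here.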

Additional observations from a re-analysis of the deposited data

Results flagged for a closer look

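The difference of Cd14 between rosiglitazone-treated and macroangiopathy mice was 0.447 log2 units higher in skeletal muscle than in aorta, and it is listed because the test of the tissue difference in limma had an unadjusted p of 0.0454. The adjusted p was 0.29, and 16.5% of all genes had an unadjusted p below 0.05 in this test. The Cd14 differences were -0.17 in aorta and 0.28 in muscle, and in muscle all 3 treated arrays were above the 3 macroangiopathy arrays.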

How the results depend on the processing

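The counts of members called were recomputed under 354 other settings and with each array left out in turn (294 fits). Of these, 325 and 277 stayed within 1.5 times the count reported, and no member's called difference changed sign. The totals include many comparisons whose count was 0 and stayed 0. In the diabetic muscle against healthy mice 5 of 13 other settings moved, as did 5 of 6 fits with an array left out. For diabetic against healthy mice, the count in aorta was 0, and it was 1 on the authors' value table, with the brightest probe, with the scanner's processed signal, scaled at each array's 75th percentile, and with quantile normalization within a tissue, and 2 with slides 1, 3 and 11 as a batch term. It was 0 to 1 with single arrays left out, 1 without diabetic or healthy aorta array 1. In muscle the count of 8 became 5 without a filter, 3 without healthy arrays 1 and 3, 2 with the slide as a random block, 2 with the batch term and 0 in a fit of the 6 arrays alone, and 3 to 6 with single arrays left out. In both tissues the count of 0 became 3 with 14 means over all arrays, 3 with the batch term, 2 without healthy aorta array 1 and muscle array 3, and 0 to 1 with single arrays left out.

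For macroangiopathy against healthy mice, the aorta count of 0 became 1 with the brightest probe, the processed signal and the batch term. The muscle count of 6 became 2 with the batch term and 0 in the 6 arrays alone, and was 4 to 7 with single arrays left out. The count of 0 in both tissues became 3 with 14 means, 2 with the batch term, 2 without the 2 healthy arrays and 0 to 1 with single arrays left out.

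In the huoxue muscle the count of 1 became 0 with the slide as a random block or the batch term and 2 in the 6 arrays alone, in the rosiglitazone muscle it became 0 with either slide term, and both ran from 0 to 1 with single arrays left out. With skeletal muscle alone in place of both tissues the counts of 0 were 2 for huoxue and 1 for rosiglitazone. Aorta against muscle called 5, and 8 with quantile normalization within a tissue. In the fits of 6 arrays alone fewer arrays estimate the spread; the cause of the other changes was not tested. Slide as a fixed block could be estimated only for yangyinyiqi in both tissues.

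With the replicate number as a block the counts did not change, with 8 members called in the diabetic muscle. The numbers were not shown to pair samples between groups or between tissues. The processed signal shifted the median of all genes by 0.11 to 0.17 in 4 comparisons, and values are not relative to that shift. Signal over background limits Msr1 in muscle.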
